A study of Mus musculus with 21 samples.

Results

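The constitutive subunits of the proteasome were followed across 21 RNA sequencing libraries of primary brain microglia from mice. The members are the genes named Psma, Psmb, Psmc or Psmd followed by a number, without the 3 immunoproteasome subunits Psmb8, Psmb9 and Psmb10 and the thymus subunit Psmb11. The rule used gene symbols and no measured value. It found 35 genes of the 54532 listed in each of 2 deposited tables, and all 35 were expressed highly enough to be tested in both. The aging table held 3 libraries each of aged Trem1-/-, aged wild type, young Trem1-/- and young wild type microglia. The 5XFAD table held 3 libraries each from adult mice of the genotype labelled 5XFADXTREM1+/- (5XFAD Trem1+/- below), of 5XFAD mice and of wild type mice. 5XFAD mice carry human transgenes with familial Alzheimer's disease mutations, expressed in neurons, and develop amyloid plaques. TREM1 is a receptor of myeloid cells that amplifies innate inflammatory signalling. Ages are given as words without months, and neither the sort used nor separate animals per library are stated, so p-values measure the spread between these samples, which may be technical.

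The proteasome is the barrel-shaped protease that degrades ubiquitin-tagged proteins in the cytosol and nucleus. Its core particle stacks rings of alpha subunits, which form the gate, around rings of beta subunits, which carry the protease sites. The regulatory particle that caps it has a base, with an ATPase ring that unfolds substrates, and a lid that removes ubiquitin chains. In cells of the immune system, interferon replaces the catalytic beta subunits by immunoproteasome subunits, and microglia are among the cells that express both sets.

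No member passed the test for a difference between groups in any of 8 comparisons of age, Trem1 genotype label and the 5XFAD transgenes. A missed threshold does not show that the levels were equal, so the intervals of the differences are given with each comparison. The test was limma on log2(normalized count + 1) across all genes of a table, and a gene was called where its p, adjusted by Benjamini-Hochberg, lay under 0.05. A log2 difference below is the difference between group means on that scale, followed by its standard error, with n = 3 libraries a group. The members took between 0.168% and 0.223% of the reads on genes in all 21 libraries, a 1.33-fold range.

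Transcript levels differed far more between members than between groups. Levels are compared here as normalized counts per kb of the principal transcript, since longer transcripts collect more reads. Psmd4, a ubiquitin receptor of the base, was highest, with a mean of 1662 ± 243 per kb over the 12 libraries of the aging table and 1552 ± 243 per kb over the 9 of the 5XFAD table (SD). Next came the alpha subunits Psma7, with 1130 ± 100 and 1216 ± 146 per kb, and Psma4, with 1051 ± 169 and 1109 ± 158 per kb. The ATPase Psmc3 followed at 1018 ± 99.1 and 1024 ± 132 per kb. The ranges of Psma7, Psma4 and Psmc3 over libraries overlapped in both tables, so their order is not separated from the spread. The same 10 genes led in both tables, and 33 of 35 members kept their place in the order to within 3 ranks.

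Per kb, the lowest mean levels belonged to assembly proteins that are not part of the finished complex, and to the testis subunit. Without division by length, Psma8, Psmd9 and Psmd10 still had the lowest means in both tables, but Psmd5 did not follow them. Psmd5, with a length of 4397 bases, had 440 normalized counts in the aging table, above the 239 of Psmb5 and the 277 of Psmb7. Psmd10, Psmd5 and Psmd9, chaperones that help to assemble the base, had 150 ± 19.5, 100 ± 16.8 and 56.8 ± 14.9 normalized counts per kb in the aging table. Psmd10 is not separated from the alpha subunit Psma2, at 154 ± 22.2 per kb, since their ranges overlap. Psma8, the alpha subunit known from spermatocytes, had 27.8 ± 13.9 per kb there and 37.1 ± 14.0 per kb in the 5XFAD table, on 8 to 112 reads a library. Without Psma8, the highest member stood 29.2-fold above the lowest in the aging table and 22.1-fold in the 5XFAD table. Among the 14 core particle subunits without Psma8, which are present in equal numbers in the particle, the range per kb was 7.35-fold and 7.93-fold in these tables. Its lower end was Psma2, with a length of 2911 bases. Undivided, Psma2 had 447 normalized counts in the aging table, above the 239 of Psmb5, so the range depends on the transcript chosen. Of the 3 catalytic subunits, Psmb6, which cuts after acidic residues, had 722 ± 110 per kb in the aging table. Psmb5, the chymotrypsin-like site, had 266 ± 42.5 per kb, and Psmb7, the trypsin-like site, had 239 ± 33.5 per kb. No library of Psmb5 or Psmb7 reached the lowest of Psmb6 in either table.

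**Figure D1:**
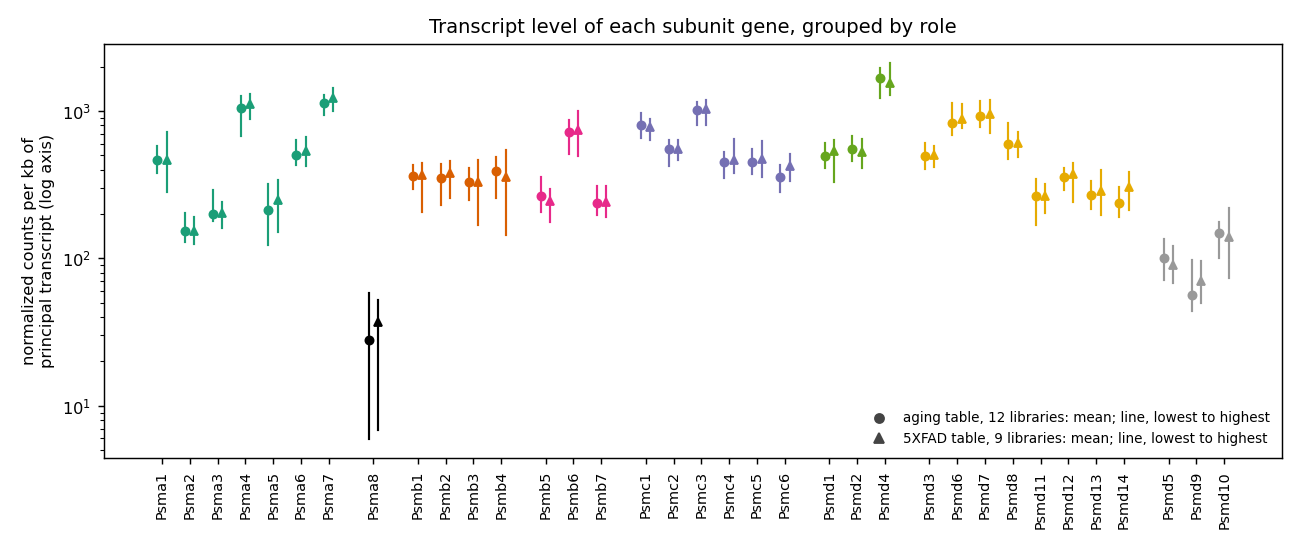
Level of each of the 35 genes in normalized counts per kb of principal transcript (log axis), coloured by role (left to right alpha ring, Psma8, structural beta, catalytic beta, ATPases, base, lid, assembly chaperones); circles are means over 12 libraries of the aging table, triangles over 9 of the 5XFAD table, and lines run from the lowest to the highest library. Psmd4 is highest, and the assembly chaperones and Psma8 are lowest, in both tables.

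Some of these levels carry a limit of mapping or of overlap between genes. Of the 50-base words in the principal transcripts, 57.1% for Psmb5, 55.8% for Psmb3 and 55.4% for Psma5 also occur in transcripts of other genes, among them pseudogenes such as Psmb5-ps. For Psma4 the share was 31.5%, for Psmb7 28.1% and for Psmd2 26.4%, while 17 members shared none. How reads matching several places were counted is not given in the sources used here, so the level of a gene with copies may be split with them. The shared words of Psmb7 were found only in Nek6, which overlaps it on the opposite strand over 405 exon bases. Psmd9 shares 1849 exon bases with Gm26745, also on the opposite strand. Whether counting used strand is not given either.

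The promoters were read for 2 sequence elements, because proteasome genes are known to be induced together through the antioxidant response element, the site of the transcription factors NFE2L1 and NFE2L2. RefSeq promoters (GRCm38.p6, 250 bases before to 50 after the start) were matched for 28 of the 35 members. The core TGACNNNGC, searched on both strands, was found in 5 of 28 members (17.9%). It was found in 14.0% of all 27025 genes with a promoter and in 16.9% of the 11272 of them that were tested. CCAAT, the box bound by NF-Y, was found in 11 of 28 members (39.3%), against 41.1% of all and 42.5% of tested genes. Both shares lie near the background. The 5 matches of the first motif are shown with up to 20 bases on either side, motif in capitals, since they include 2 of the 3 catalytic subunits.
Psmb5: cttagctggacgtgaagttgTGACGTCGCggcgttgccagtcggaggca
Psmb6: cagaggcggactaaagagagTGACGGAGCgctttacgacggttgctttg
Psmc6: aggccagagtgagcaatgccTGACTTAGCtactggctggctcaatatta
Psmd12: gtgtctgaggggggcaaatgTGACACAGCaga
Psmd9: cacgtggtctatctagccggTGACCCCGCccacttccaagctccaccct
The Psmb5 window is chr14:54618014-54618062 on the minus strand, with the motif 43 bases before the start. The Psmb6 window is chr11:70525328-70525376 on the plus strand, 5 bases before the start. Psmd9 has its motif 27 bases before the start, in chr5:123228139-123228187 on the plus strand. In Psmc6, at chr14:45329577-45329625, and Psmd12, at chr11:107479278-107479309, the match lies on the minus strand, opposite to the gene, 223 and 243 bases before the start.

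The libraries differed in ways that could touch all members at once. Depth, as reads on genes per library, ran from 8600878 to 19411434 for aging and from 9264999 to 18698707 for the 5XFAD table. The 8 microglial markers summed to 282377 to 315283 normalized counts in aged Trem1-/-, 301895 to 338233 in aged wild type and 376642 to 390135 in young Trem1-/- libraries, against 392586 to 445201 in young wild type. They summed to 359238 to 398919 in 5XFAD Trem1+/- and 301809 to 341629 in 5XFAD libraries, against 377325 to 423257 in adult wild type. The sums were thus lower, without overlap, in aged than in young libraries of either genotype label and in 5XFAD than in adult wild type. Summed neutrophil markers were 53928 to 135605 in aged Trem1-/-, 66726 to 126833 in aged wild type and 26019 to 61455 in young Trem1-/- libraries, against 8333 to 15419 in young wild type. Summed monocyte markers were 15210.3 to 19524.5 in aged Trem1-/- and 16003.5 to 30198.3 in aged wild type. They were 13034.5 to 32825.1 in young Trem1-/-, against 2116.6 to 4364.15 in young wild type. Summed choroid plexus markers were 30818 to 40782 in aged Trem1-/- and 26969 to 44698 in aged wild type. In young libraries they were lower, at 2395 to 14816 in Trem1-/- and 6028 to 14916 in wild type. In the 5XFAD table they were 18225 to 103072 in 5XFAD Trem1+/- and 14939 to 81523 in 5XFAD libraries, against 2271 to 6558 in adult wild type. Summed astrocyte markers were 1573 to 2728 in 5XFAD Trem1+/- and 1973 to 3659 in 5XFAD libraries, against 221 to 819 in adult wild type. In the same order of groups, neuron sums were 210.1 to 388, 331 to 731 and 105 to 209.6. Border macrophage sums were 385 to 414, 381 to 601 and 115 to 308. Oligodendrocyte sums were 924 to 1051, 940 to 1046 and 654 to 819. Neutrophil sums were 10165 to 21076, 10892 to 16464 and 3125 to 42798, with overlap. Monocyte sums were 2610 to 5276, 1805 to 7481 and 766 to 7236, again with overlap. The part of these shifts in the members' values was not tested, and in bulk samples fewer cells of a type and less RNA per cell cannot be told apart. Trem1 itself had 124 to 244 normalized counts in the libraries labelled aged Trem1-/- and 89.4 to 99.8 in those labelled young Trem1-/-, against 188 to 269 in aged and 7.65 to 25.2 in young wild type. In the 5XFAD table it had 18.1 to 38.3 in 5XFAD Trem1+/- and 13.7 to 36.8 in 5XFAD, against 0 to 62.7 in wild type. The genotype label is therefore used below as a label.

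The members' share of reads moved with single libraries. It was 0.191 ± 0.006% in aged Trem1-/-, 0.194 ± 0.005% in aged wild type, 0.204 ± 0.021% in young Trem1-/- and 0.200 ± 0.003% in young wild type libraries (SD, n = 3 each). Young Trem1-/- replicates 1, 2 and 3 had 0.223%, 0.181% and 0.208%, so that group alone covered most of the range of the series. In replicate 1 of that group 30 of 34 members (without Psma8) were above their own group mean, and in replicate 2 this was true of 4 of 34. The share was 0.208 ± 0.002% in 5XFAD Trem1+/-, 0.205 ± 0.013% in 5XFAD and 0.179 ± 0.018% in adult wild type libraries. Adult wild type replicates 1 and 2 had 0.171% and 0.168%, below every 5XFAD library, while replicate 3 had 0.199%, with 28 of 34 members above their group mean.

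**Figure D2:**
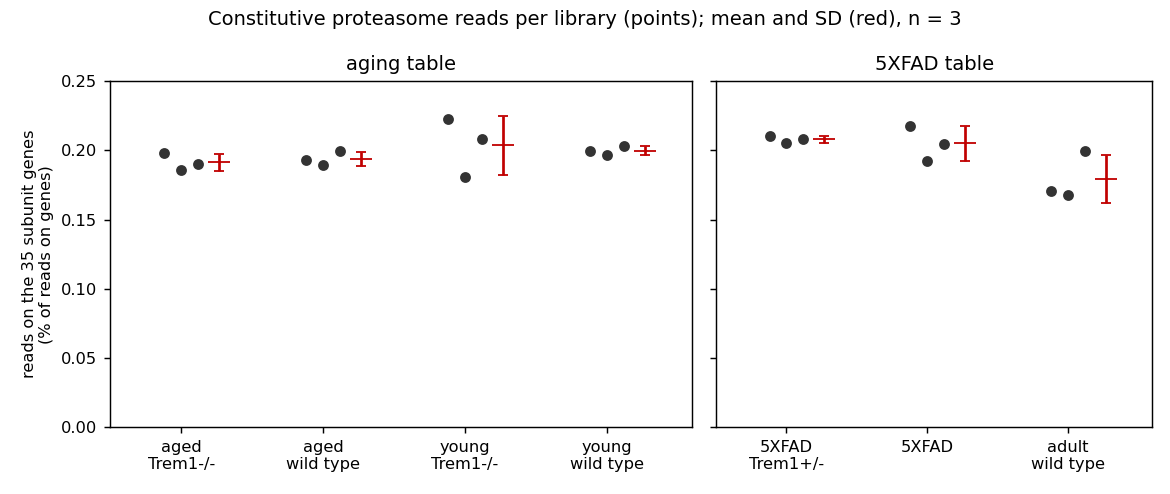
Reads on the 35 genes as a percent of reads on genes, for each library (points), with the group mean and SD in red (n = 3). The values run from 0.168% to 0.223%; young Trem1-/- spreads from 0.181% to 0.223%, and 2 of 3 adult wild type libraries lie below all 5XFAD libraries.

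Replicates of a group agreed well for these genes. The median residual SD of the members was 0.20 log2 units for aging and 0.24 for the 5XFAD table, against 0.38 and 0.47 over all tested genes. The members were also higher in counts, with a median table mean of 593 normalized counts against 192 for all tested genes of the aging table, and 622 against 174 for the 5XFAD table. Since low counts vary more, the smaller spread cannot be told apart from the higher level.

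In wild type microglia the differences with age were centred near 0. Of 35 members, 0 were called by limma in aged against young wild type, where 8.67% of all 16086 tested genes were called, 6.43% higher and 2.24% lower. At an unadjusted p under 0.05 there were 2 members, against 21.8% of all genes, and edgeR and DESeq2 on the recovered reads called 0 as well. The median difference was 0.02, with 20 members above 0, and the median over all genes was -0.01. The 95% interval stayed within 2-fold of no change for 34 members and within 1.5-fold for 26.

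The testis subunit Psma8 had the largest difference with age in wild type. It had 10, 67.2 and 15.3 normalized counts in aged wild type, against 65.3, 98.4 and 35.8 in young wild type, a log2 difference of -1.44 ± 0.64 (limma adjusted p 0.181). Aged replicates 1 and 3 lie below all young libraries, and replicate 2 lies among them. Psmd2, the base scaffold that receives ubiquitin-like shuttles, had 2019, 1461 and 1903 in aged wild type, against 1502, 1439 and 1377 in young wild type (0.30 ± 0.14, limma adjusted p 0.193). Again aged replicate 2 lay within the young range. Leaving out that 1 library put both genes past the threshold, with Psma8 at -2.22 (limma adjusted p 0.0261) and Psmd2 at 0.45 (limma adjusted p 0.0438), on 2 aged libraries. Leaving out aged replicate 1 instead gave -0.91 for Psma8 and 0.21 for Psmd2, and over all single omissions the limma adjusted p ran up to 0.539 and 0.520. Psma1, an alpha ring subunit, had 471, 488 and 459 in aged wild type, against 621, 594 and 586 in young wild type (-0.34 ± 0.17, limma adjusted p 0.245). It was the 1 member whose aged libraries all lay below the young ones, a pattern seen in 11.2% of all genes. The aged libraries of Psmb2, Psmb5 and Psma6 all lay above the young ones, 3 of 35 members against 15.1% of all genes.

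Of the catalytic sites, Psmb5 had the largest difference with age in wild type. Psmb5 averaged 261 ± 52.9 normalized counts in aged wild type and 202 ± 18.9 in young wild type (SD, n = 3 each), a log2 difference of 0.36 ± 0.24 (limma adjusted p 0.429). Psmb6 averaged 553 ± 96.6 in aged and 587 ± 95 in young wild type, and Psmb7 averaged 269 ± 34.3 and 270.2 ± 1.2. Psmd14, the metalloprotease of the lid that cuts ubiquitin chains off substrates, averaged 371 ± 45.6 in aged and 339 ± 40.2 in young wild type. Neither Psmb6, Psmb7 nor Psmd14 had a difference larger than its standard error.

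Young Trem1-/- against young wild type also gave 0 called members, where 2.58% of all genes were called, 2.36% higher and 0.224% lower. No member reached an unadjusted p under 0.05 (11.8% of all genes did), and edgeR and DESeq2 called 0. The median difference was 0.11 with 26 of 35 members above 0, against 49.1% of all genes above 0. All 7 alpha ring subunits were above 0, with a median of 0.13. Without young Trem1-/- replicate 1 the median was 0.02, and without young wild type replicate 2 it was 0.05. Psma5, an alpha ring subunit, had 394, 261 and 369 normalized counts in young Trem1-/-, against 292, 152 and 252 in young wild type (0.58 ± 0.29, limma adjusted p 0.427), and the groups overlap. Psmd2 had 1939, 1586 and 1688 in young Trem1-/-, all above the 1502, 1439 and 1377 of young wild type (0.27 ± 0.14, limma adjusted p 0.482). Psma6 had 667, 515 and 552, all above the 472, 498 and 468 of young wild type (0.26 ± 0.18, limma adjusted p 0.652). With Psmb2, these were 3 members whose libraries did not overlap with a higher young Trem1-/- group, against 11.3% of all genes, and no member had a lower, non-overlapping group, against 9.05%. The 95% intervals of 33 members lay within 2-fold of no change and those of 25 within 1.5-fold. Psmb5, Psmb6 and Psmb7 differed by 0.22 ± 0.24, 0.16 ± 0.19 and 0.06 ± 0.23, and Psmd14 by 0.17 ± 0.21.

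Among aged mice, 0 members were called between Trem1-/- and wild type, as were 0% of all genes. For 1 member the test reached an unadjusted p under 0.05, against 9.6% of all genes, and edgeR and DESeq2 called 0 members. The median was -0.06, with 24 members below 0, and it was 0.02 without aged Trem1-/- replicate 2. Psmd5, which chaperones an ATPase module of the base, had 440, 416 and 311 normalized counts in aged Trem1-/-, against 593, 527 and 427 in aged wild type (-0.41 ± 0.19, limma adjusted p 0.517). Psmd4 had 2179, 1819 and 1625, against 1904, 2358 and 2532 in aged wild type (-0.27 ± 0.14, limma adjusted p 0.533). The ATPase Psmc1 had 1174, 1059 and 1166, against 1549, 1169 and 1421 in aged wild type (-0.28 ± 0.14, limma adjusted p 0.537). In each of these 3 genes the groups overlap, and no member of 35 had groups apart in either direction, against 5.91% of all genes higher and 6.25% lower. The 95% intervals of 34 members lay within 2-fold of no change and those of 23 within 1.5-fold. Psmb5 and Psmb7 differed by 0.00 ± 0.24 and 0.07 ± 0.23, Psmb6 by -0.10 ± 0.19 and Psmd14 by -0.03 ± 0.21.

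Aged against young Trem1-/- libraries had the largest median shift of the 4 group comparisons of the aging table, downward, and again 0 called members, where 1.71% of all genes were called, 1.08% higher and 0.634% lower. At an unadjusted p under 0.05 there were 5 members, 14.3%, against 15.2% of all genes. DESeq2 and edgeR called 0. The median was -0.18, with 27 of 35 members below 0, and 7 of 8 lid subunits were below 0 with a median of -0.22. Without young Trem1-/- replicate 1 the median was -0.09, and without replicate 2 it was -0.27. The 95% intervals of 33 members lay within 2-fold of no change and those of 19 within 1.5-fold. Psmd7, a scaffold of the lid, had 1271, 1226 and 1366 normalized counts in aged Trem1-/-, against 1804, 1347 and 1859 in young Trem1-/- (-0.36 ± 0.13, limma adjusted p 0.180). Young replicate 2 lay within the aged range. Psmd1, a scaffold of the base, had 1631, 1287 and 1270 in aged Trem1-/-, against 1900, 1459 and 1898 in young Trem1-/- (-0.33 ± 0.14, limma adjusted p 0.264). Psmd4 had 2179, 1819 and 1625, against 2474, 1920 and 2537 in young Trem1-/- (-0.30 ± 0.14, limma adjusted p 0.289). Aged libraries all lay below young ones in 6 members (Psmc1, Psmb6, Psmb3, Psma5, Psmc5 and Psmd8), 17.1% against 9.87% of all genes, and above them in 1, Psmd10, against 11.3%. Psmb6 averaged 515 ± 90.5 in aged and 649 ± 36.3 in young Trem1-/- (SD, n = 3 each; -0.35 ± 0.19, limma adjusted p 0.389), while Psmb5 and Psmb7 differed by 0.14 ± 0.24 and 0.00 ± 0.23 and Psmd14 by -0.08 ± 0.21.

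The interaction asks directly whether the age difference differed with the genotype label. It was called for 0 members, where 2.54% of all genes were called, 0.398% above 0 and 2.14% below. On unadjusted values, 3 members reached a p under 0.05, against 15.3% of all genes, and edgeR and DESeq2 called 0. Its median was -0.21, with 27 members below 0, and -0.29 without young Trem1-/- replicate 2. Smallest p had Psmd2, with -0.47 ± 0.20 (limma adjusted p 0.236), Psmc1, with -0.45 ± 0.20 (limma adjusted p 0.262), and Psmd5, with -0.62 ± 0.27 (limma adjusted p 0.276). In each of these 3 genes the age difference was above 0 in wild type and below 0 in the Trem1-/- libraries. Psmb5, Psmb6 and Psmb7 had -0.22 ± 0.34, -0.26 ± 0.26 and 0.02 ± 0.33, and Psmd14 had -0.20 ± 0.30. Only 4 members had a 95% interval within 1.5-fold of no change here, and 27 within 2-fold, so the interaction is the least resolved of the 8 comparisons. The 5 aging comparisons share their groups and are not independent of each other.

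**Figure D3:**
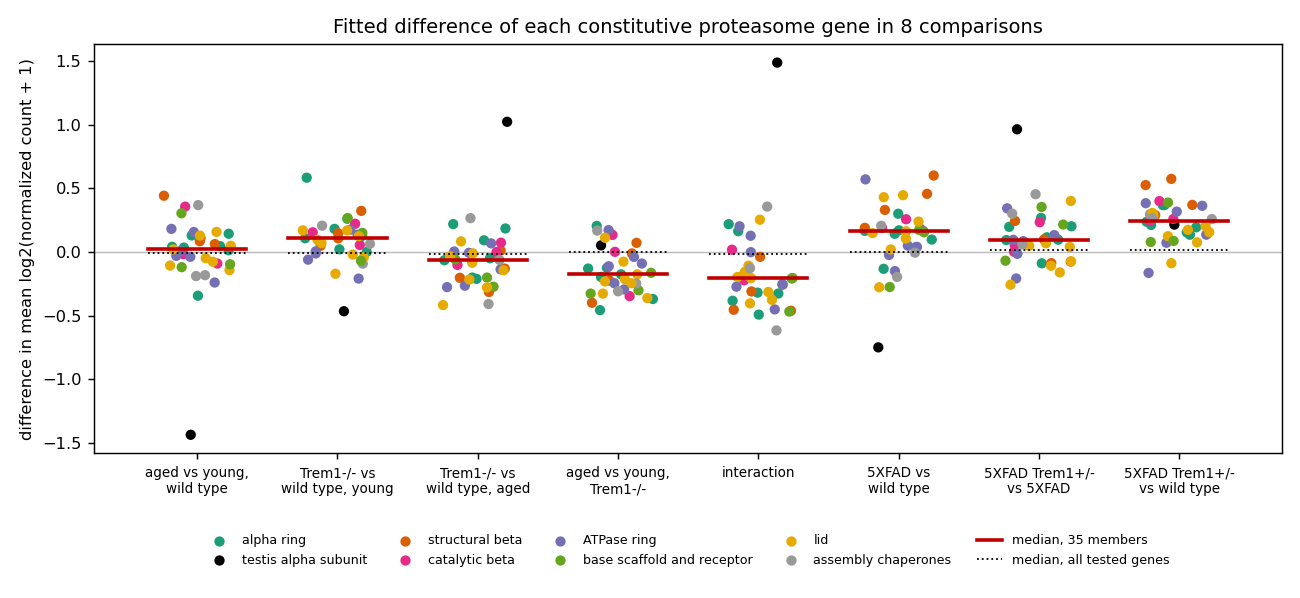
Difference in mean log2(normalized count + 1) for each of the 35 genes in 8 comparisons, coloured by role; red bars are the medians of the 35 members and dotted lines the medians of all tested genes. Most members lie within 0.5 of 0, Psma8 lies outside the range of the other members in all but aged against young Trem1-/- and 5XFAD Trem1+/- against wild type, and the median of 5XFAD Trem1+/- against wild type is the farthest above 0, at 0.25.

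In adult mice, the 5XFAD libraries lay slightly above wild type for most members, without a call. The test called 0 of 35 members, where 1.98% of all 17025 tested genes were called, 1.62% higher and 0.364% lower. Of the members, 3 reached an unadjusted p under 0.05, against 15.1% of all genes, and edgeR and DESeq2 called 0. The median was 0.16 with 27 members above 0, against a median of 0.00 over all genes. It was 0.08 without wild type replicate 1 and 0.11 without replicate 2, and 22 to 30 members were above 0 when single libraries were left out. The 95% intervals of 33 members lay within 2-fold of no change and those of 15 within 1.5-fold. Structural beta subunits had the highest median of the roles, 0.39, with 4 of 4 above 0. Wild type replicate 2 was the lowest wild type library for Psmb1 (361, against 569 and 691) and Psmb3 (129, against 229 and 271). The same held for Psmb4 (170, against 338 and 495), but not for Psmb2 (316, against 219 and 345). The median of this role without replicate 2 was not computed, so its rank may rest on that library. The 3 catalytic subunits were also above 0, with Psmb5 at 0.19 ± 0.30, Psmb6 at 0.17 ± 0.22 and Psmb7 at 0.26 ± 0.25, and Psmd14 was at 0.02 ± 0.24. The ATPases had a median of 0.05.

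Psmc5, an ATPase of the base ring, came closest to the threshold. It had 727, 817 and 662 normalized counts in 5XFAD libraries, against 540.3, 475 and 466 in wild type, a log2 difference of 0.57 ± 0.19 (limma adjusted p 0.135). The gene lies at chromosome 11, 106256154 to 106263120 on the plus strand (GRCm38), and shares no 50-base word with another gene. All its 5XFAD libraries were above all wild type ones. Psmd7 had 1888, 1729 and 1617 in 5XFAD libraries, against 1293, 1128 and 1474 in wild type (0.43 ± 0.15, limma adjusted p 0.151), again with groups apart. It lies at chromosome 8, 107580381 to 107588464 on the minus strand. These were the 2 members with higher, non-overlapping 5XFAD libraries, against 9.32% of all genes, and no member had lower ones, against 8.01%. Psmd13, a lid subunit, had 647, 792 and 520 in 5XFAD, against 479, 389 and 563 in wild type (0.45 ± 0.21, limma adjusted p 0.328), with overlap.

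The authors' deposited table gives Psmc5 an adjusted p of 0.0442 and a log2 fold change of -0.57, and Psmd7 an adjusted p of 0.0860 and -0.42, coded as wild type over 5XFAD, so that both are higher in 5XFAD. In the authors' deposited table Psmc5 is the 1 member of 35 under 0.05, against 4.24% of 20098 genes. DESeq2 on the reads recovered here gave a smallest adjusted p of 0.0681 among members. For the aging libraries the authors' deposited table compares young wild type over aged Trem1-/-, with 0 members under 0.05 and Psmd4 lowest at an adjusted p of 0.138, against 7.32% of 20305 genes.

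5XFAD Trem1+/- against wild type showed the same sign in nearly all members. Of 35 members, 33 were above 0, 94.3% against 51.4% of all genes, with a median of 0.25 and none called, where 2.78% of all genes were called, 2.04% higher and 0.74% lower. At an unadjusted p under 0.05 there were 2 members, against 15.9% of all genes, and edgeR and DESeq2 called 0. All 7 alpha ring and all 7 constitutive beta subunits were above 0, the structural beta subunits with a median of 0.45 and the catalytic ones with 0.26. Psmc6 at -0.16 ± 0.18 and Psmd14 at -0.09 ± 0.24 were the 2 below 0. Libraries were all above wild type in 7 members (Psmc1, Psmc5, Psmc4, Psma2, Psma1, Psmb7 and Psmd6), 20% against 12.9% of all genes, and all below in 0, against 12.6%. The wild type libraries are those that the 5XFAD comparison also uses, with the low replicate 2 values of Psmb1, Psmb3 and Psmb4. The median was 0.33 without wild type replicate 3 and 0.16 without replicate 1, with 31 to 33 of 35 members above 0 in the 16 alternatives that kept all members, and 22 of 24 among those with at most 5% of shared 50-base words.

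Psmd2 had 1587, 1920 and 1779 normalized counts in 5XFAD Trem1+/-, against 1210, 1219 and 1634 in wild type (0.39 ± 0.17, limma adjusted p 0.251). Wild type replicate 3 lies within the range of the 5XFAD Trem1+/- libraries. Psmc1 had 1302, 1406 and 1411, against 1079, 1018 and 1212 in wild type (0.32 ± 0.14, limma adjusted p 0.280), with groups apart. Psmc5 had 716, 564 and 632, against 540.3, 475 and 466 in wild type (0.36 ± 0.19, limma adjusted p 0.351), also apart. Psmb6 averaged 685 ± 119 in 5XFAD Trem1+/- and 523 ± 123 in wild type (SD, n = 3 each; 0.40 ± 0.22, limma adjusted p 0.388). Psmb5 and Psmb7 differed by 0.25 ± 0.30 and 0.26 ± 0.25. The intervals of 31 members stayed within 2-fold of no change and those of 12 within 1.5-fold.

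**Figure D4:**
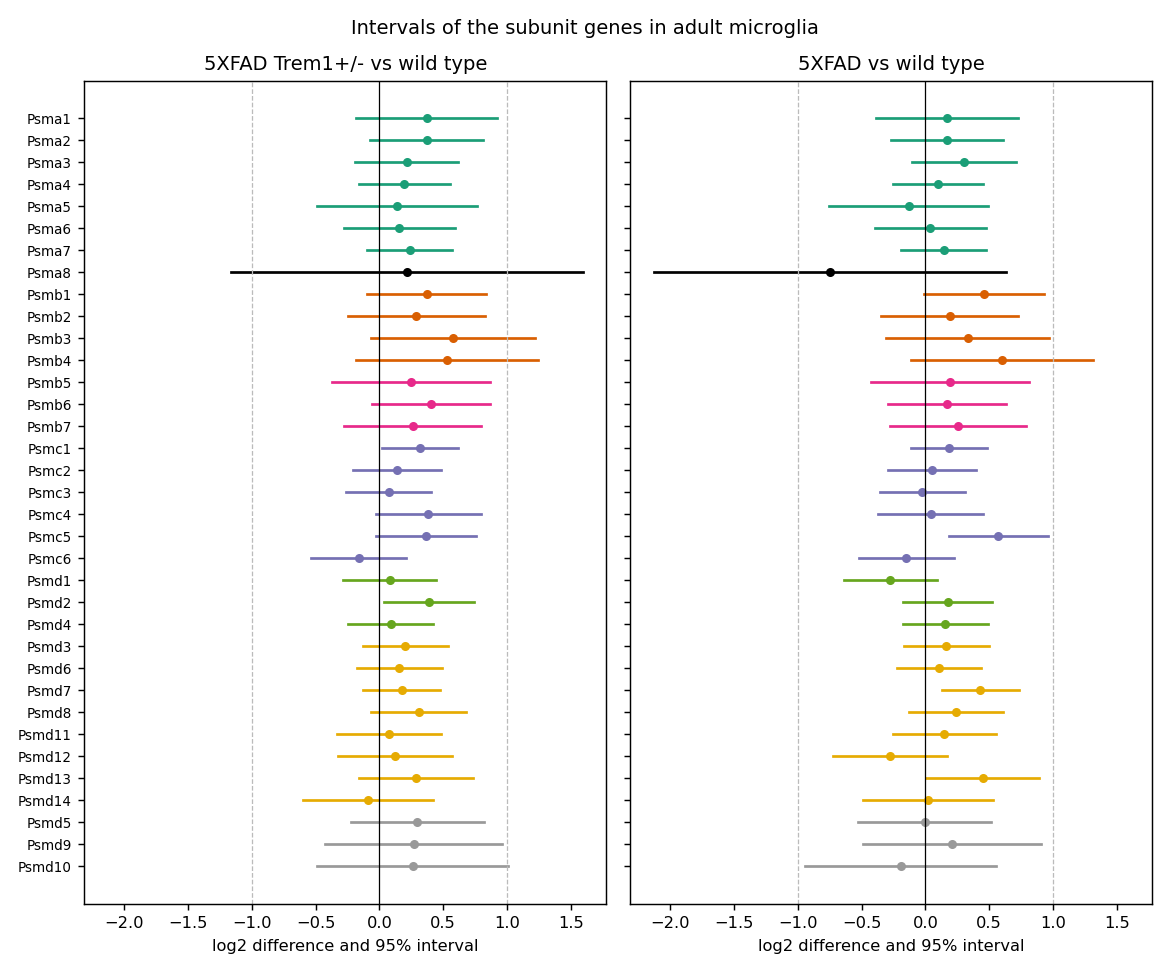
Log2 difference (points) and 95% interval (lines) of each gene for 5XFAD Trem1+/- against wild type (left) and 5XFAD against wild type (right), coloured by role; dashed lines mark a 2-fold change. Points lie above 0 for 33 and 27 of 35 genes, and the unadjusted intervals lie above 0 for Psmd2 and Psmc1 on the left and for Psmc5, Psmd7 and Psmd13 on the right.

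Between 5XFAD Trem1+/- and 5XFAD libraries the median difference was closer to 0, although whether it differed from that against wild type was not tested. The test called 0 members and 0% of all genes, and 0 members against 5.19% of all genes reached an unadjusted p under 0.05; edgeR and DESeq2 called 0 members. The median was 0.09, with 25 members above 0. The 95% intervals of 33 members lay within 2-fold of no change and those of 17 within 1.5-fold. Psmd1 had 1977, 1695 and 1768 normalized counts in 5XFAD Trem1+/-, against 1561, 1021 and 1779 in 5XFAD (0.35 ± 0.17, limma adjusted p 0.931). Psmd12, a lid subunit, had 690.1, 840 and 845, against 797, 458 and 581 in 5XFAD (0.40 ± 0.21, limma adjusted p 0.931). In both genes 5XFAD replicate 2 was the lowest library, and without it the differences were 0.12 and 0.21. Psmd7 had 1336, 1598 and 1448, all below the 1888, 1729 and 1617 of 5XFAD (-0.26 ± 0.15, limma adjusted p 0.931), the 1 member with groups apart, against 6.61% of all genes lower and 5.24% higher. Psmb5, Psmb6, Psmb7 and Psmd14 differed by 0.06 ± 0.30, 0.23 ± 0.22, 0.00 ± 0.25 and -0.11 ± 0.24.

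The catalytic subunits were next set against the immunoproteasome subunits that replace them. Psmb8 replaces Psmb5, Psmb9 replaces Psmb6 and Psmb10 replaces Psmb7. Per kb of transcript, Psmb8 stood 2.31 ± 0.31 times as high as Psmb5 in aged Trem1-/-, 2.57 ± 0.63 in aged wild type, 2.75 ± 0.30 in young Trem1-/- and 3.34 ± 0.59 times in young wild type libraries (SD, n = 3 each). In the 5XFAD table this ratio was 2.74 ± 0.21 in 5XFAD Trem1+/-, 2.65 ± 0.96 in 5XFAD and 3.002 ± 0.888 in wild type. Psmb10 was between 1.27 and 2.04 times as high as Psmb7 in the group means. Psmb9 reached only 0.22 to 0.34 of Psmb6. So the order within a pair was not the same for the 3 sites, in any group. These ratios carry the limits of mapping and overlap given above. Psmb5 and Psmb7 shared 57.1% and 28.1% of their 50-base words with other genes, against 2.67% for Psmb6. The share for the immunoproteasome subunits was not computed, and the part of mapping or overlap in the ratios was not tested. Between groups, 21 two-sided exact permutation tests of the log2 ratios were run. With 3 against 3 libraries the smallest possible p is 0.1, so none could pass 0.05 and no conclusion is drawn from them. The Psmb10 to Psmb7 ratio reached that smallest exact permutation p in young Trem1-/- against young wild type. It also did so in aged against young Trem1-/-. Its log2 ratios were 1.05 to 1.21 in young Trem1-/-, against 0.83 to 0.92 in young wild type and 0.29 to 0.99 in aged Trem1-/-. No Benjamini-Hochberg value of these tests was below 0.7.

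Around the subunits, 44 genes of the ubiquitin-proteasome pathway were read from 9 lists, of which 43 were tested; Paaf1 was not analysed here. The thymus subunit Psmb11, kept apart from these lists, had 0 to 2 reads a library and was below the filter. The lists held other regulatory particle subunits, immunoproteasome subunits, activators and their inhibitor, core assembly factors, bound enzymes, transcription control, ubiquitin genes, shuttling and extraction factors, and E1 enzymes. Of the 43, 1 gene rose with age in wild type, where 6.43% of all genes rose. In 5XFAD Trem1+/- against wild type 2 rose, against 2.04% of all genes, and 1 had a negative interaction, against 2.14%. The remaining comparisons called 0. These counts are small beside the number of genes listed, and nothing particular to the pathway is read from them. The 8 genes of transcription control and the 5 of core particle assembly gave 0 calls in all 8 comparisons.

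Vcp, the ATPase that extracts ubiquitin-tagged proteins for the proteasome, had 3618, 3200 and 4112 normalized counts in aged wild type, against 2683, 2472 and 2983 in young wild type (0.42 ± 0.12, limma adjusted p 0.0297). Its aged Trem1-/- libraries had 3124, 2850 and 2309, all below the 3833, 3514 and 3539 of young Trem1-/- (-0.40 ± 0.12, limma adjusted p 0.0914). The interaction was -0.83 ± 0.17 (limma adjusted p 0.00884). That call was lost without the trend and robust options of limma, at an adjusted p of 0.175. The rise in wild type missed the threshold with edgeR, at an adjusted p of 0.0526, and when any 1 of 4 libraries was left out (aged wild type 1 or 3, young wild type 1 or 2), at limma adjusted p of 0.0699 to 0.179.

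Psme1 and Psme2 encode the interferon-inducible activator ring that caps the core particle in place of the regulatory particle. Psme1 had 2777, 2861 and 3293 normalized counts in 5XFAD Trem1+/- and 3159, 2777 and 2224 in 5XFAD, against 2261, 1596 and 1965 in wild type. The rise in 5XFAD Trem1+/- against wild type was 0.63 ± 0.15 (limma adjusted p 0.0313), and the value in 5XFAD was 0.49 ± 0.15 (limma adjusted p 0.117). Psme2 had 325, 265 and 590.4 in 5XFAD Trem1+/- and 474, 330.0 and 239 in 5XFAD, against 141, 62.1 and 187 in wild type. Its rise in 5XFAD Trem1+/- against wild type was 1.64 ± 0.41 (limma adjusted p 0.0407), and the value in 5XFAD was 1.495 ± 0.408 (limma adjusted p 0.0737). Between 5XFAD Trem1+/- and 5XFAD the 2 genes differed by 0.14 ± 0.15 and 0.15 ± 0.41. With edgeR both rises missed the threshold, at adjusted p of 0.0615 for Psme1 and 0.0686 for Psme2. They also missed it when 1 of several libraries was left out: wild type replicate 2 or 3 or 5XFAD Trem1+/- replicate 2 or 3 for Psme1 (limma adjusted p 0.0641 to 0.192), and wild type replicate 1 or 2 or 5XFAD Trem1+/- replicate 1 or 3 for Psme2 (0.0649 to 0.229).

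**Figure D5:**
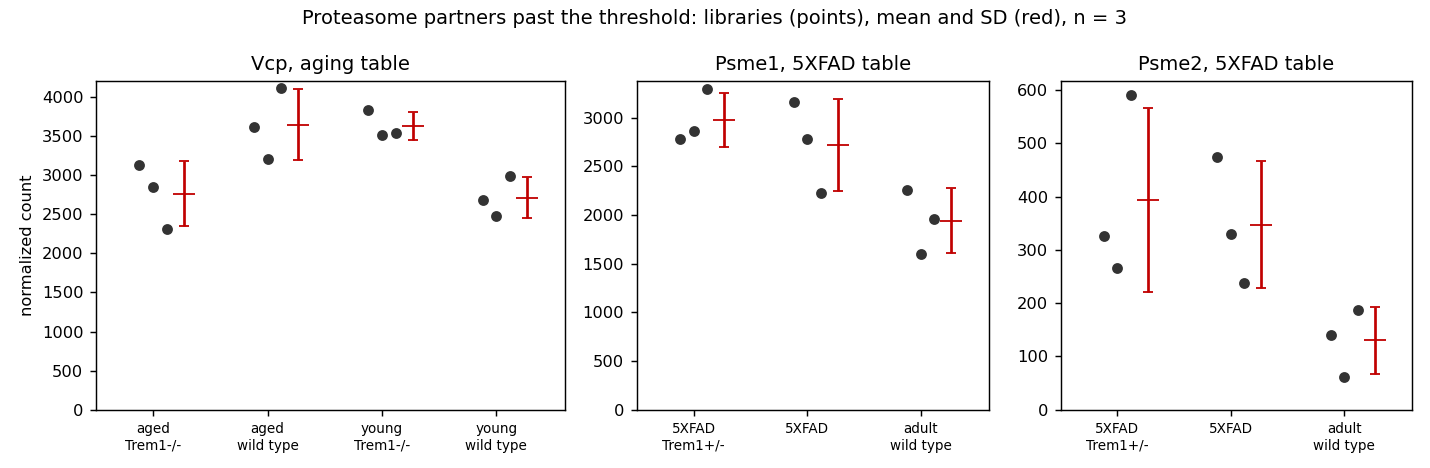
Normalized counts of Vcp in the aging table and of Psme1 and Psme2 in the 5XFAD table for each library (points), with the group mean and SD in red (n = 3). Aged libraries lie above young ones for Vcp in wild type and below them in Trem1-/-. Group means of Psme1 and Psme2 are lowest in wild type, but wild type replicate 1 of Psme1 (2261) lies above 5XFAD replicate 3 (2224).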

How the data were processed

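RNA was extracted with a column kit and made into NEBNext Ultra libraries, per the labels. The submitters' processing notes name fastp, HISAT2 2.0.5, featureCounts 1.5.0-p3, DESeq2 1.20.0 and GRCm38. Each deposited library column, and the mean column, is a signal: read counts over that library's size factor. The deposited log2 fold change and adjusted p-value come from the authors' comparison. Whole reads (within 0.05) were recovered for at least 99.9956% of nonzero values and gave the depths. Tables were normalized separately, so no test crosses them.

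Genes averaging at least 10 normalized counts were tested with limma 3.58.1 in R 4.3.3, with its trend and robust options, after adding a pseudocount of 1, which understates changes of low genes. Each table had a single model over all its groups. Alternatives were edgeR 4.0.16 and DESeq2 1.42.0 on recovered reads, other pseudocounts, filters and scaling, a replicate block and leaving out each library. The code was tested on simulated data. Positions and lengths are from GENCODE M21 (GRCm38). The principal transcript was the longest protein-coding one at the best principal (APPRIS) annotation level of its gene. Members, lists and rules were chosen with earlier results of these data known. Named were the 3 members with the smallest p in each comparison, Psmb5, Psmb6, Psmb7 and Psmd14 throughout, and pathway genes past the threshold. Other genes were named after their values were seen, for groups that did not overlap, their place in an order, their sign or their sequence.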

Additional observations from a re-analysis of the deposited data

Results flagged for a closer look

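Vcp was singled out because its difference with age differed between the genotype labels by a test of the difference itself. The age difference was -0.40 ± 0.12 in the libraries labelled Trem1-/- and 0.42 ± 0.12 in wild type, and the interaction was -0.83 ± 0.17 (log2, limma adjusted p 0.00884). Without the trend and robust options of limma the call was lost, at an adjusted p of 0.175. All 3 aged Trem1-/- libraries were below all young Trem1-/- ones, and all 3 aged wild type libraries were above all young wild type ones. These patterns were seen in 9.87% and 15.1% of all genes, and 2.54% of all genes had a called interaction. Young Trem1-/- against young wild type differed by 0.42 ± 0.12 (limma adjusted p 0.0649). Aged Trem1-/- against aged wild type differed by -0.40 ± 0.12 (limma adjusted p 0.367). Groups of 3 are too small for a test of single outlying libraries.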

How the results depend on the processing

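The number of members called stayed at 0 in 132 of 133 alternatives. The exception was aged against young wild type, where leaving out single libraries gave 0 to 2 members; the 2 were Psma8 and Psmd2 without aged wild type replicate 2, and the cause was not tested. The members' median moved by more than its spread in 5 alternatives, all of them omissions of 1 library: 0.02 in young Trem1-/- against young wild type without young Trem1-/- replicate 1, 0.02 in aged Trem1-/- against aged wild type without aged Trem1-/- replicate 2, -0.09 and -0.27 in aged against young Trem1-/- without young Trem1-/- replicates 1 and 2, and -0.29 for the interaction without young Trem1-/- replicate 2. Vcp's interaction missed the threshold without the trend and robust options (limma adjusted p 0.175), as did its rise in wild type (0.169) and those of Psme1 (0.257) and Psme2 (0.229). Restricting to the 24 members with at most 5% shared words, an alternative chosen after seeing the data, moved no median by more than 0.032, with -0.01 for aged against young wild type. With the replicate number as a block, 0 members were called in all 8 comparisons. The smallest limma adjusted p among members was 0.118, in 5XFAD against wild type. The median residual correlation of libraries with the same number in different groups was 0.0119 for aging and 0.0116 for 5XFAD. These correlations ran from -0.136 to 0.0988 for aging and from -0.0328 to 0.203 for 5XFAD. Of the libraries, 3 of 12 for aging and 7 of 9 for 5XFAD were closest to their own number. Whether the number marks a pairing or a batch was not tested. The block moved calls over all genes from 337 to 628 in 5XFAD against wild type and from 473 to 848 in 5XFAD Trem1+/- against wild type. DESeq2 called 778 and 1061 there, and 605 against 275 with limma in aged against young Trem1-/-. With n = 3, the 95% intervals placed 27 to 34 members within 2-fold of no change, so for the others a 2-fold difference was not excluded at this precision.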
